A study of Salmo salar with 12 samples.

Results

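Whole-genome bisulfite sequencing (WGBS) reads most of a genome at a modest, even depth, and a small set of CpG cytosines in Atlantic salmon carried far more reads than the rest. These very high coverage cytosines were chosen on read depth alone, as the CpG cytosines with 150 or more reads in each of 11 libraries. The rule kept 6533 of the 3987894 CpG cytosines listed in all 11 libraries (0.164%), and these formed 1432 regions when cytosines within 1 kb of each other were joined. They held 2.65% to 3.26% of the reads at the common cytosines of a library. Methylated reads played no part in the choice, so methylation levels could be compared between tissues and time points, whereas read depths are given only as a description.

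CpG methylation is the addition of a methyl group to a cytosine that is followed by a guanine. In vertebrates most CpGs outside unmethylated promoters and other CpG-dense stretches carry it, and it is known for keeping transposable elements and other repeats silent. Bisulfite treatment turns unmethylated cytosines into bases read as thymine and leaves methylated cytosines as they are, so the share of reads that still show cytosine gives the methylation level at that position. A sequence that is present in many copies but appears only a few times in an assembly collects the reads of all its copies, and its level is then an average over copies as well as over cells.

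The libraries came from pituitary, ovary and liver of female fish that were kept as a single management group in tanks. Fish were sampled at T4, the last sampling after the start of a long-light photoperiod that promotes sexual maturation, and at T1, immediately before it. The study's methods describe them as brood stock and state an age, which is not repeated here. Strain is not given in the sources used here. Each library title names 1 fish, and some fish gave more than 1 tissue. There were 2 libraries per tissue and time point and 12 in all, and 11 entered the rule, which left pituitary T1 with replicate 2 only. The files hold no expression values, so the tissue labels could not be checked against marker genes.

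Pituitary T1 replicate 1 was left out because depth in its file stops at 150 reads. In the other files the highest depth lay between 4730 and 7395 reads. It nevertheless listed 6138 of the 6533 very high coverage cytosines, at 10 to 150 reads with a median of 84, and was used as a library outside the rule. Its mean level at these cytosines was 78.4%, against 77.9% and 78.0% in the pituitary T4 libraries and 78.4% in pituitary T1 replicate 2 at the same positions. For the ovary T1 libraries the fish codes in the titles and in the file names are exchanged, which leaves their group unchanged but matters for which tissues share a fish.

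The depth of a very high coverage cytosine, averaged over the 11 libraries, had a median of 340 reads, with 25% of them at or under 263 reads and 25% at or above 517. A total of 542 cytosines reached 1000 reads, and the highest stood at 6986. The median depth of the remaining common cytosines was 20 to 24 reads per library. The regions were mostly short. A total of 504 held 1 cytosine, 770 held 2 to 9 and 158 held 10 or more. Those 158 regions together held 2952 of the 6533 cytosines. Regions of 3 or more cytosines had a median length of 232 bp, and the longest spanned 10952 bp.

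Most of the very high coverage cytosines lay outside the chromosome-level sequences of the ICSASG_v2 assembly. Only 1506 (23.1%) were on the 29 sequences whose names begin with CM, the chromosomes of this assembly, against 88.1% of the other common cytosines. The remaining 5027 (76.9%, against 11.9% of the other common cytosines) were spread over 1008 scaffolds that had not been placed on a chromosome. On those scaffolds the very high coverage cytosines made up 21.7% of the common cytosines, and on 114 scaffolds they were all of them. By region, 362 lay on CM sequences and 1070 on scaffolds. Cytosines were found on 28 of the 29 CM sequences, with the most on CM003292.1 (142), CM003295.1 (119), CM003283.1 (112) and CM003279.1 (106). Of the 362 regions on CM sequences, 17 lay within 1 Mb of the first or last listed cytosine of their sequence. The matching share of the other common cytosines is not given here, so this count is not read as many or few.

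The largest regions were on scaffolds. AGKD04017441.1:3111-14062 held 166 cytosines, AGKD04022494.1:1375-9039 held 102, AGKD04011280.1:39883-42670 held 65 and AGKD04017757.1:331-4774 held 48. On chromosomes, CM003306.1:37410288-37411675 and CM003292.1:43585959-43587714 held 47 each. The deepest region of 3 or more cytosines was CM003292.1:578890-579490, where 31 cytosines averaged 3721 reads, with libraries between 2108 and 4790. The next deepest were AGKD04286518.1:160-838 with 1971 reads, AGKD04068624.1:891-1097 with 1921, AGKD04329689.1:143-585 with 1895 and AGKD04230207.1:124-952 with 1863. Coordinates are those of ICSASG_v2, and no gene annotation of that assembly was used, so whether a region is genic, exonic or intronic was not analysed here.

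The working name of this set holds the word repeats, which the files could address only through the spacing of cytosines. Among the 225 regions with 8 or more cytosines, 77 matched at least 1 other region at the same spacing, base for base, over at least 8 cytosines and at least 80% of the smaller region. This gave 99 matched pairs in 22 groups, 56 in the same orientation and 43 in the opposite one, and up to 27 cytosines matched in a pair. In 26 pairs a CM sequence matched a scaffold. The deepest region, CM003292.1:578890-579490, belonged to a group of 9 regions whose depths ran between 271 and 3721 reads and whose levels ran between 67.3% and 78.0%. Cytosines at matched positions differed in level by a median of 2.33 points (percentage points), and their levels had a Pearson correlation of 0.698 over 971 pairs of positions, which share libraries and are not independent. No genome sequence of this assembly was used, so no repeat family could be named.

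Very high coverage cytosines were mostly methylated, and on average slightly less so than the other CpG cytosines listed in all 11 libraries. Their mean level was 78.2% ± 0.308 in pituitary (SD, n = 3 libraries), 76.0% ± 0.271 in ovary (SD, n = 4) and 76.8% ± 0.210 in liver (SD, n = 4). The other common cytosines averaged 79.7% ± 0.423, 78.4% ± 0.498 and 81.9% ± 0.0503 in pituitary, ovary and liver. The gap to the other cytosines was therefore −1.47 points in pituitary, −2.42 points in ovary and −5.10 points in liver. In liver the gap was −5.35 to −4.81 points in the 4 libraries, and no library of the other tissues reached it, with −2.75 to −2.19 points in ovary and −1.70 to −1.16 points in pituitary.

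The order of the tissues differed between the sets. Among the very high coverage cytosines the 3 pituitary libraries stood at 77.95% to 78.5%, above all 4 liver libraries at 76.6% to 77.1%, a difference of 1.37 points (pituitary minus liver). Among the other common cytosines the pituitary libraries lay at 79.3% to 80.1% and all 4 liver libraries at 81.9% to 82.0%, a difference of −2.26 points. Ovary was lowest in both sets, at 75.7% to 76.3% in the very high coverage cytosines and 77.9% to 79.1% in the others. The difference also varied with placement. Over the other common cytosines, which are not all of ordinary depth, the pituitary minus liver difference on unplaced scaffolds was −0.456 points. At very high coverage cytosines it was 1.33 points on scaffolds and 1.505 points on CM sequences. No p-value is given for these means, since the cytosines of a library are not replicates.

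The tissue order changed with depth and not only at the threshold. With cytosines binned by their lowest depth over the 11 libraries, the pituitary minus liver difference was −2.07 points at 10 to 19 reads, −3.03 at 20 to 29 and −3.52 at 30 to 49. It was 0.617 points at 50 to 99 reads and 1.36 at 100 to 149, and it lay between 1.08 and 1.97 points in the bins from 150 reads upwards. Just outside the threshold, 1434 cytosines at 135 to 149 reads averaged 80.05% in pituitary, 77.9% in ovary and 78.6% in liver. Just inside it, 1087 cytosines at 150 to 164 reads averaged 78.6%, 76.4% and 76.9% in the same tissues. The share of cytosines on CM sequences was also lower at greater depth, with 90.1% at 10 to 19 reads, 49.6% at 50 to 99, 25.3% at 150 to 199 and 32.6% at 1000 or more, and its part in the change of order was not tested.

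**Figure D1:**
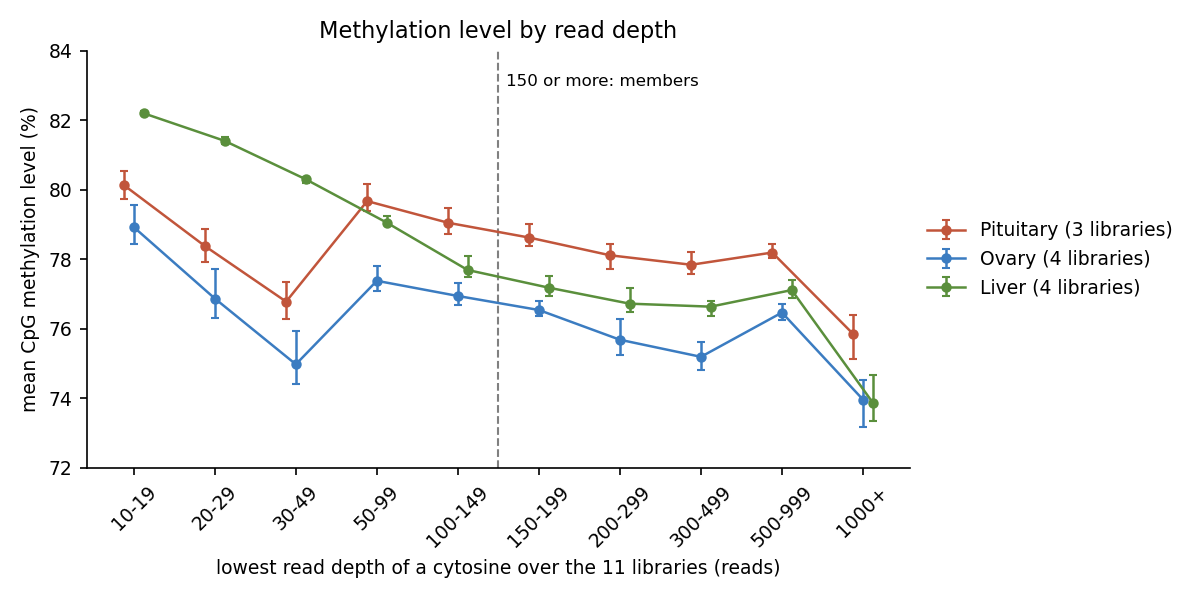
Mean CpG methylation level (y axis, %, axis not starting at 0) of the cytosines common to 11 libraries, binned by their lowest read depth over the libraries (x axis, reads, bins of unequal width). Points are means over the libraries of pituitary, ovary and liver, bars run over the lowest and highest library, and the dashed line marks 150 reads. Liver is highest up to 49 reads and pituitary from 50 reads upwards.

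Levels at single cytosines were repeatable. Over the 6533 cytosines, the Pearson correlation between libraries of a tissue was 0.975 to 0.986, against 0.944 to 0.974 between libraries of different tissues. By their mean level, 4102 cytosines (62.8%, against 70.6% of the others) were above 80%, 2153 (33.0%, against 26.0%) lay between 20% and 80%, and 278 (4.26%, against 3.39%) were under 20%. The intermediate class averaged 66.5% in pituitary, 62.7% in ovary and 64.3% in liver, and the high class 89.2%, 87.6% and 88.2% in the same tissues. In the low class all 3 tissues stood between 6.55% and 6.74%. Of the 278 low cytosines, 72 were alone in their region and 68 had neighbours that also averaged under 20%. A further 106 had neighbours averaging between 20% and 80%, and 32 had neighbours averaging over 80%.

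The least methylated large region was AGKD04617993.1:17-601, where 14 cytosines stood at 0.0747% to 0.165% in the 11 libraries and at 0.237% in pituitary T1 replicate 1. Its depth, a quantity the rule used, was 835, 861 and 617 reads per cytosine in pituitary, 1851 to 2735 in ovary and 727 to 1638 in liver. The next lowest were CM003296.1:34307451-34308098, with 33.1% to 34.3% in pituitary, 29.3% to 31.4% in ovary and 33.6% to 35.2% in liver, and AGKD04026217.1:6770-7532, with 43.0% to 47.8%, 43.2% to 45.5% and 39.7% to 42.0% in the same tissues. At the other end, AGKD04069708.1:307-697 (14 cytosines), CM003281.1:49200769-49200918 (10) and CM003283.1:15264496-15265037 (15) averaged 94.7%, 94.4% and 93.1%, and the lowest single library among them, liver T1 replicate 1 at CM003283.1, stood at 91.5%.

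To compare tissues region by region, methylated and unmethylated reads were summed over each of the 1432 regions and over 537230 other 1 kb tiles, and all were tested together with edgeR's quasi-likelihood F test on 11 libraries, with p-values adjusted by the Benjamini-Hochberg method over all 538662 features and a threshold of 0.05. The test gave the time points of a tissue equal weight, so pituitary T1 replicate 2 counted as much as both pituitary T4 libraries together. Tissue differences in points are instead plain means over the libraries, and the direction of a call is that of the test. In this test the regions called between pituitary and another tissue were mostly higher in pituitary. Against liver, 249 regions (17.4%) were higher in pituitary and 35 (2.44%) were lower, whereas over all features 4.56% were called higher and 12.1% were called lower. Against ovary, 314 regions (21.9%) were higher in pituitary and 12 (0.838%) were lower, against 11.2% and 6.68% of all features. Between ovary and liver, 48 regions (3.35%) were higher in ovary and 99 (6.91%) were lower, against 2.41% and 16.2% of all features.

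The shift was broad and small. The median difference over the 1432 regions was 1.65 points for pituitary minus liver, against −0.0402 over all features. It was 2.02 points for pituitary minus ovary, against 1.47, and −0.416 points for ovary minus liver, against −1.61. Called regions differed by a median of 4.69 points between pituitary and liver, whereas called tiles differed by 19.2 points, and reads per cytosine were higher in the regions by the rule itself. The part of depth in the count of calls was not tested. Between pituitary and liver, 61 of 362 CM regions and 223 of 1070 scaffold regions were called in either direction, against 16.7% of all features. The share of CM regions was close to that of all features, and these counts do not give the direction. Regions of intermediate level differed most, with a median of 2.73 points for pituitary minus liver, against 1.38 points in regions above 80% and −0.126 points in the 99 regions under 20%. Among the other tiles the medians were −2.69, 0.369 and −0.444 points in the same classes. The intermediate class thus differed most there too, but in the other direction.

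The counts, and how the regions stood against all features, depended on the test, and edgeR treated libraries of the same fish as independent. With limma, applied to the log2 ratio of both read classes, pituitary against liver gave 54 called regions, of which 41 were higher and 13 lower in pituitary. Pituitary against ovary gave 45 (42 higher, 3 lower), and ovary against liver 30 (4 higher, 26 lower). These were 3.77%, 3.14% and 2.09% of the regions, against 15.1%, 15.6% and 17.0% of all features. With limma the regions were thus called less often than all features in each pair. Read depth did not enter limma as a weight, and the part of this in the shares was not tested. Over all features 4.1% were called higher and 11% lower in pituitary than in liver, 9.74% and 5.87% in pituitary than in ovary, and 2.2% and 14.8% in ovary than in liver.

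With fish as a block in limma, pituitary against liver gave 14 called regions, of which 8 were higher and 6 lower in pituitary. Pituitary against ovary gave 8 (5 higher, 3 lower), and ovary against liver 16 (2 higher, 14 lower). These were 0.978%, 0.559% and 1.12% of the regions, against 10.5%, 5.95% and 12.3% of all features. Over all features 2.11% were called higher and 8.37% lower in pituitary than in liver, 2.83% and 3.12% in pituitary than in ovary, and 1.62% and 10.7% in ovary than in liver. With the fish codes of the file names 17, 8 and 16 regions were called, against 11.4%, 7.0% and 12.9% of all features. The fish terms leave fewer degrees of freedom for the spread than limma without them. A fish with a library from a single tissue adds nothing to a tissue comparison. A call lost in this fit therefore does not show that the tissues are alike. By the titles, pituitary T4 replicate 2 and pituitary T1 replicate 2 were the only pituitary libraries in it that shared a fish with liver. Of these, pituitary T4 replicate 2 alone also shared its fish with ovary. A pituitary call kept in this fit rests on these few fish.

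In pituitary T1 replicate 1, which neither the rule nor the test used, the level was above the liver mean in 213 of the 248 regions called higher in pituitary at which it listed cytosines (85.9%), in 1 of the 34 called lower and in 63.8% of the 1113 not called. It was above the ovary mean in 273 of 310 regions called higher in pituitary than in ovary (88.1%) in 2 of 12 called lower and in 65.9% of those not called. The liver and ovary means are those of the libraries that gave the calls, so these counts are a description and not an independent check.

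**Figure D2:**
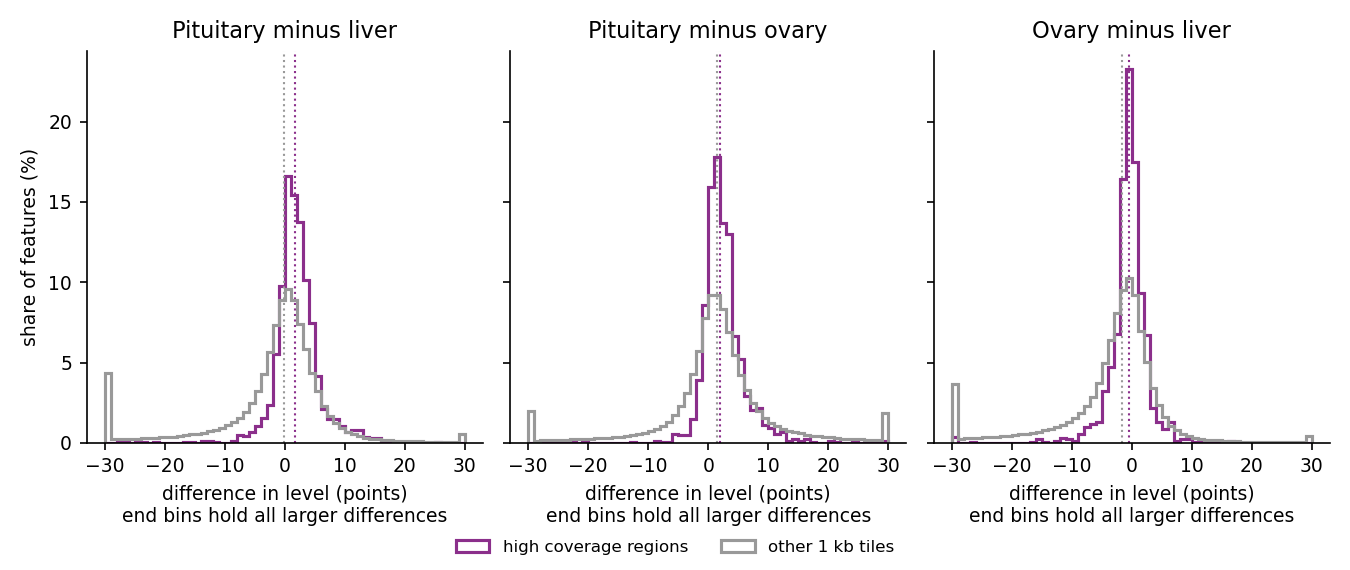
Distribution of the difference in methylation level between tissues (x axis, percentage points, first tissue minus second) over the 1432 very high coverage regions (purple) and 537230 other 1 kb tiles (grey). The y axis is the share of features in bins of 1 point, dotted lines are medians, and the end bins hold all differences beyond 30 points. For pituitary minus liver the median of the regions is 1.65 points, to the right of that of the tiles at −0.0479.

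Several regions departed from the small general shift. Among the called regions of 3 or more cytosines, the largest tissue difference was at AGKD04022223.1:432-2871. This stretch of 39 cytosines was lower in ovary than in pituitary and liver. Its level was 44.4% and 52.0% in ovary T4 and 38.2% and 27.7% in ovary T1, against 82.97% and 82.7% in liver T4 and 83.1% and 82.8% in liver T1. Pituitary had 81.6% and 82.3% at T4 and 84.02% in its T1 library (95% Wilson interval 83.5% to 84.5%). All such intervals here address counting error only. They count each cytosine of a read as independent, so they are too narrow where a read covers several cytosines. The ovary libraries lay below every library of the other tissues. Ovary minus liver came to −42.3 points (edgeR adjusted p = 1.94e-12) and pituitary minus ovary to 42.1 points (adjusted p = 1.01e-11), and the calls also passed with fish as a block (adjusted p = 0.00159 against liver and 0.01385 against pituitary). Reads per cytosine were 342 to 525 in pituitary, 308 to 375 in ovary and 327 to 584 in liver, so that the ovary libraries also lay towards the low end in depth, whose part in the difference was not tested.

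The low level of the ovary extended over the whole stretch. Each of the 39 cytosines was lower in ovary than in pituitary and in liver. Ovary levels ran between 23.6% and 55.0% with a median of 43.5%, while the median was 86.7% in pituitary and 86.3% in liver. Cytosines that were lower in the other tissues were also lower in ovary at some positions, as at 758 bp from the first cytosine, where pituitary stood at 55.6%, ovary at 37.1% and liver at 46.7%.

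**Figure D3:**
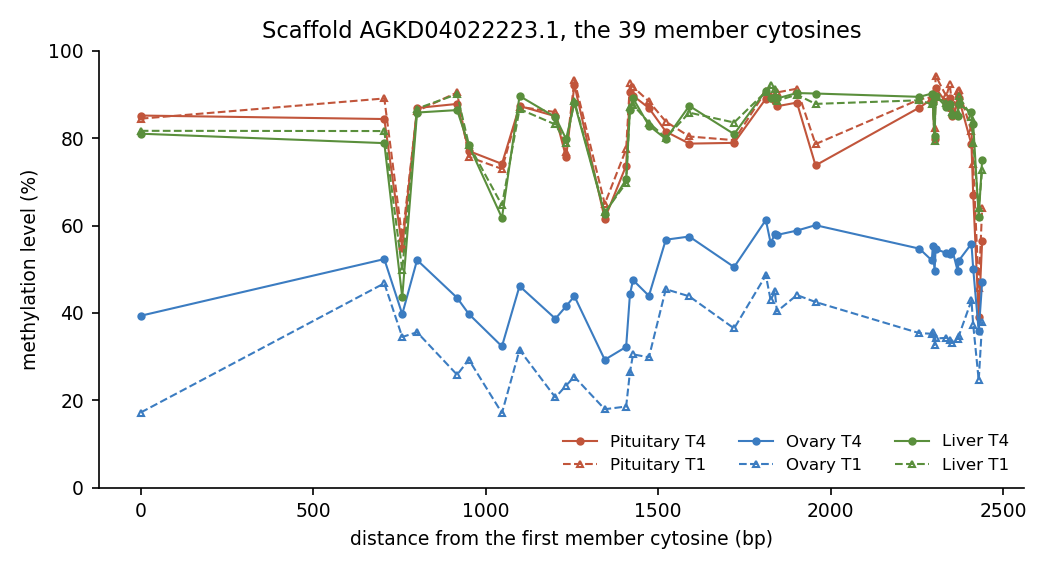
Methylation level (y axis, %) of the 39 very high coverage cytosines of scaffold AGKD04022223.1 by distance from the first of them (x axis, bp). Lines join group means of pituitary, ovary and liver at T4 (filled circles, solid) and T1 (open triangles, dashed), where pituitary T1 is 1 library. Both ovary lines run below the other 4, and ovary T4 lies above ovary T1 at all 39 cytosines.

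A pair of short regions showed the same drop in ovary on a smaller scale. AGKD04054001.1:2203-2363 (3 cytosines) had 39.9% and 38.9% in ovary T4 and 25.9% and 24.1% in ovary T1, against 61.1% to 65.6% in liver and 57.9% to 67.7% in pituitary, and the ovary minus liver difference was −31.5 points (edgeR adjusted p = 1.45e-08). AGKD04030911.1:3392-3709 (3 cytosines) had 67.4% and 71.5% in ovary T4 and 63.1% and 60.75% in ovary T1, against 79.9% to 81.6% in liver and 80.4% to 84.3% in pituitary, and the ovary minus liver difference was −15.1 points (adjusted p = 3.85e-07). In both, no ovary library reached the range of another tissue. Against pituitary, AGKD04030911.1 was no longer called with fish as a block (adjusted p = 0.154).

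Fewer regions were called higher in ovary than in liver, and among those of 3 or more cytosines the largest differences were smaller. The largest such differences were at AGKD04615146.1:295-495 with 8.12 points, CM003287.1:60562012-60564161 with 6.98 points and AGKD04011386.1:8663-8871 with 6.87 points (edgeR adjusted p = 0.00755, 2.83e-05 and 0.00124). At CM003287.1:60562012-60564161, 12 cytosines averaged 65.0% ± 0.0439 in pituitary (SD, n = 3), 60.8% ± 1.51 in ovary and 53.8% ± 1.23 in liver (SD, n = 4 each), and the libraries of the 3 tissues did not overlap. These 3 ovary calls were lost with limma (adjusted p = 0.125, 0.210 and 0.194) and with fish as a block (0.237, 0.322 and 0.373). At AGKD04011386.1 the pituitary minus ovary difference was −5.42 points (adjusted p = 0.0084), a call lost without pituitary T1 replicate 2 (adjusted p = 0.156), with limma (0.298) and with fish as a block (0.5745).

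Among the regions of 3 or more cytosines called lower in pituitary, the largest differences were at a pair of short regions with like spacing. CM003300.1:52342571-52342598 had 60.4% and 58.2% in pituitary T4 and 51.7% in pituitary T1 (95% Wilson interval 47.6% to 55.7%), against 79.2% to 83.1% in ovary and 82.3% to 83.9% in liver. AGKD04809074.1:128-154 had 62.1% and 57.6% in pituitary T4 and 57.6% in pituitary T1 (53.6% to 61.5%), against 78.8% to 80.7% in ovary and 81.9% to 86.5% in liver. The pituitary minus liver difference was −26.2 and −24.8 points at these regions (edgeR adjusted p = 5.08e-09 and 2.13e-08), and both calls passed with fish as a block (0.00352 and 0.00421). Pituitary T1 replicate 1 had 61.1% and 62.0% there. Each region held 3 cytosines, at offsets of 0, 3 and 27 bp on the chromosome and 0, 3 and 26 bp on the scaffold. A read can cover all of them, so the intervals above are too narrow. At the first cytosine of the chromosome region pituitary stood at 39.3%, ovary at 72.6% and liver at 77.4%. At the first cytosine of the scaffold region the values were 37.1%, 73.6% and 78.0% in the same tissues.

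Among the regions of 3 or more cytosines called higher in pituitary than in liver, the difference was largest at CM003295.1:25721209-25721496 (4 cytosines). There pituitary had 70.5% and 71.8% at T4 and 76.8% at T1, ovary had 59.4% to 63.6% and liver 52.5% to 59.3%. The difference from liver was 17.2 points (edgeR adjusted p = 1.61e-06), and it passed with fish as a block (0.0448). AGKD04615146.1:295-495 (3 cytosines) was 12.5 points higher in pituitary than in liver (adjusted p = 0.000207), with 69.0% to 72.6% in pituitary and 55.7% to 59.9% in liver. AGKD04114139.1:458-858 (3 cytosines) was 11.8 points higher (adjusted p = 0.0024), with 49.4% to 52.5% in pituitary, 37.9% to 42.9% in ovary and 34.8% to 42.2% in liver. With fish as a block the last of these gave adjusted p = 0.228 and AGKD04615146.1 gave 0.1485, and AGKD04114139.1 was also not called with limma (0.0827).

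The region AGKD04031239.1:2326-2666 (5 cytosines) was called lower in pituitary than in liver, with a difference of −13.0 points (edgeR adjusted p = 0.0204), but the liver libraries alone spread over 23.9% to 48.0%. Pituitary had 18.2% and 16.7% at T4 and 23.4% at T1, liver 25.9% and 23.9% at T4 and 48.0% and 31.7% at T1. Without liver T1 replicate 1 the adjusted p was 0.108, without liver T4 replicate 1 it was 0.0614 and without pituitary T4 replicate 2 it was 0.0624, and with fish as a block it was 0.390.

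**Figure D4:**
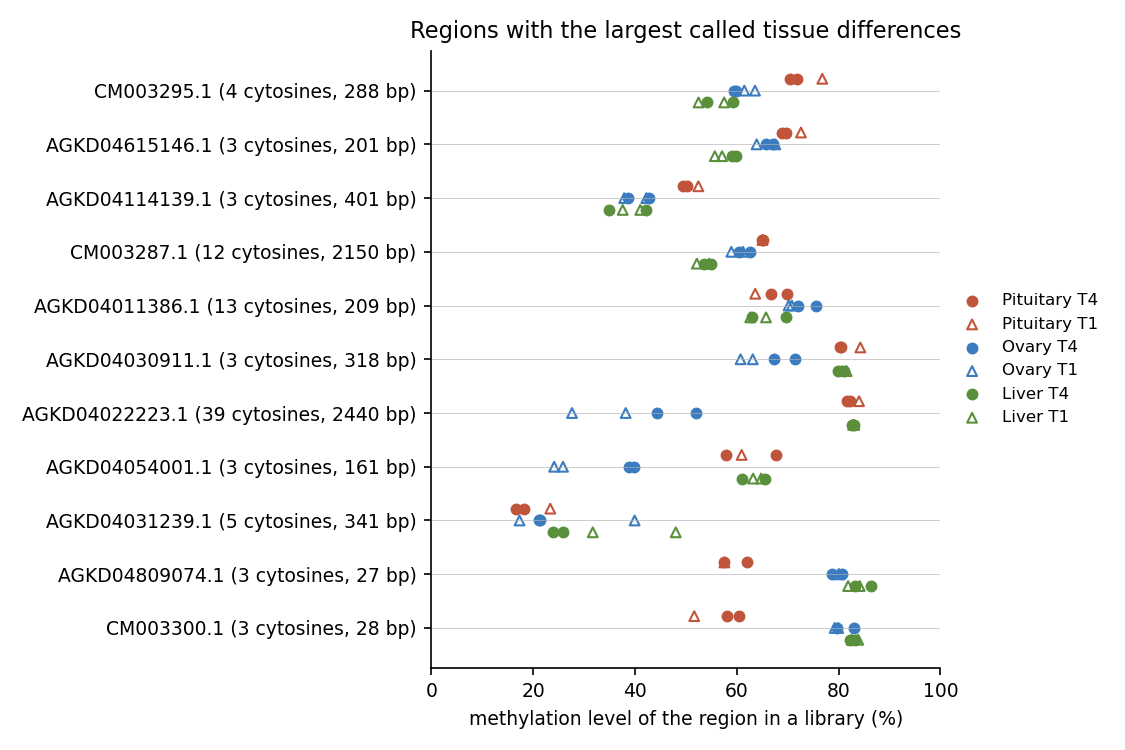
Methylation level (x axis, %) in each of 11 libraries for the regions with the largest called tissue differences among those of 3 or more cytosines (rows, with their number of cytosines and length). Filled circles are T4 and open triangles T1 libraries of pituitary (red), ovary (blue) and liver (green). Ovary lies apart at AGKD04022223.1, AGKD04054001.1 and AGKD04030911.1, and pituitary lies apart at the 2 lowest rows.

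Most of the regions with the most cytosines were higher in pituitary, with narrow spread. AGKD04017441.1:3111-14062 averaged 85.0% ± 0.299 in pituitary (SD, n = 3), 84.5% ± 0.235 in ovary and 84.5% ± 0.274 in liver (SD, n = 4 each), so that pituitary was 0.517 points above liver (edgeR adjusted p = 0.00952). The difference from liver was 1.32 points at AGKD04022494.1 (adjusted p = 3.15e-05), 3.02 points at AGKD04011280.1 (2.73e-08) and 4.35 points at CM003292.1:43585959-43587714 (9.66e-11). AGKD04017757.1:331-4774 had the widest spread of these on scaffolds, with 74.95% ± 0.170 in pituitary, 66.7% ± 0.735 in ovary and 71.1% ± 0.329 in liver, and all 3 pairs were called (adjusted p between 1.83e-11 and 1.18e-08). CM003306.1:37410288-37411675 ran the other way, with 80.9% ± 1.90 in pituitary, 81.6% ± 0.968 in ovary and 87.7% ± 0.558 in liver, a pituitary minus liver difference of −6.80 points (adjusted p = 2.44e-11). The deepest region, CM003292.1:578890-579490, was called between ovary and liver alone, with 73.5% ± 2.07 and 69.5% ± 2.38 and a difference of 4.04 points (adjusted p = 0.00226). With fish as a block in limma no tissue pair was called at any of these 7 regions, with adjusted p between 0.131 and 0.993.

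Time points differed little. Over the very high coverage cytosines the mean level was 78.0% ± 0.114 at T4 (SD, n = 2) against 78.5% at T1 (n = 1) in pituitary, 76.1% ± 0.343 at T4 against 75.9% ± 0.227 at T1 in ovary (SD, n = 2 each), and 77.0% ± 0.199 at T4 against 76.7% ± 0.140 at T1 in liver (SD, n = 2 each). The difference was 0.226 points in ovary, where the time points overlapped, and −0.515 points in pituitary, where T1 is 1 library and both T4 libraries lay below it. In liver the difference was 0.271 points, and the lower T4 library (76.83%) lay just above the higher T1 library (76.80%). Over the other common cytosines T4 minus T1 was −0.654 points in pituitary, 0.610 in ovary and −0.0737 in liver. The ovary difference at very high coverage cytosines was −0.211 points on CM sequences and 0.357 on scaffolds.

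Between T4 and T1 within a tissue, edgeR called 1 region lower in pituitary and none higher, 1 higher and 1 lower in ovary, and 1 higher and none lower in liver. Over all features 0.00854% were called higher and 0.00817% lower in pituitary, 0.0743% and 0.0239% in ovary, and 0.0162% and 0.0189% in liver. With limma no region was called in any tissue. An unadjusted edgeR p under 0.05 was reached by 65 of 1432 regions in pituitary, 107 in ovary and 92 in liver. Chance alone gives a share of about 0.05 at this threshold, and no difference is read from these counts. Over the 3 tissues together 7 regions (0.489%) were higher at T4 and 8 (0.559%) were lower, against 0.164% and 0.186% of all features, and limma called 0. These fits treated tissues of the same fish as independent, so agreement between tissues partly counts the same fish again. By the titles each fish belongs to 1 time point, so fish could not be a block here. Differences between fish and between time points cannot be told apart. The tissue by time point interaction passed the edgeR test in 0 of 1432 regions, against 0.000186% of all features. At an unadjusted p under 0.05 there were 57 regions, a count under the same limit.

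The ovary-low stretch AGKD04022223.1:432-2871 was also the region that was higher at T4 in ovary. Its mean was 48.2% ± 5.36 at T4 against 32.9% ± 7.45 at T1 (SD, n = 2 each), a difference of 15.3 points (edgeR adjusted p = 0.00725), and both T4 libraries (44.4% and 52.0%) lay above both T1 libraries (38.2% and 27.7%). All 39 cytosines were higher at T4. The call was lost without ovary T4 replicate 2 (adjusted p = 0.201) and without ovary T1 replicate 2 (0.0785), and with limma (0.508). The other ovary call was AGKD04580895.1:34-641 (10 cytosines), with 87.9% and 86.8% at T4 against 90.5% and 91.6% at T1, a difference of −3.74 points (adjusted p = 0.0198). It was lost without ovary T1 replicate 2, ovary T4 replicate 1 or ovary T4 replicate 2 (adjusted p = 0.280, 0.0525 and 0.327).

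In pituitary and over the tissues, CM003287.1:123326706-123326823 (3 cytosines) was lower at T4. It had 73.8% and 71.1% in pituitary T4 against 88.2% in pituitary T1 (95% Wilson interval 86.3% to 89.9%), 73.0% and 72.6% in ovary T4 against 80.7% and 74.9% in ovary T1, and 76.7% and 73.1% in liver T4 against 80.4% and 88.1% in liver T1. The T4 libraries were below the T1 libraries in each tissue, with a difference of −10.0 points over the tissues (edgeR adjusted p = 0.000691) and −15.8 points in pituitary (0.0410). The highest levels, in pituitary T1 replicate 2 and liver T1 replicate 2, which share a fish by their titles, came with the fewest reads, 410 and 341 per cytosine, against 704 to 1289 in the other libraries, and the part of depth was not tested. Without pituitary T1 replicate 2 the difference over the tissues gave adjusted p = 0.0752. The pituitary call was lost without pituitary T4 replicate 1 (0.149), pituitary T4 replicate 2 (0.208), ovary T4 replicate 1 (0.0580) or ovary T4 replicate 2 (0.0575). Pituitary T1 replicate 1 had 83.2% there. A cytosine further along the same sequence, CM003287.1:123714903, had 72.9% and 66.9% in pituitary T4 against 86.2% in pituitary T1, and also few reads in the same 2 T1 libraries (434 and 470). Its difference over the tissues was −9.25 points (adjusted p = 0.0216), the time points overlapped in liver, and leaving out a library ended the call in 6 of 11 cases, with adjusted p up to 0.487 without pituitary T1 replicate 2.

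Of the other regions called over the tissues, the largest increases among those with 3 or more cytosines were at CM003279.1:141315118-141315510 (4.48 points, edgeR adjusted p = 0.0485), CM003284.1:22940906-22941210 (3.42 points, 0.0330) and CM003295.1:22384124-22384612 (2.74 points, 0.00587). CM003295.1:22384124-22384612 (18 cytosines) had 86.4% and 87.0% at T4 against 83.97% at T1 in pituitary, 84.2% and 86.2% against 82.0% and 85.5% in ovary, and 86.3% and 86.6% against 82.1% and 82.6% in liver, so that the time points overlapped in ovary. It shared its spacing of cytosines with CM003284.1:22940906-22941210 and with CM003284.1:22976165-22976373, which was called in the other direction, with −1.54 points (adjusted p = 0.0450) and is named after its values were seen. Leaving out a library ended the call in 10 of 11 cases for CM003279.1:141315118, in 5 of 11 for CM003284.1:22940906, in 10 of 11 for CM003284.1:22976165 and in none for CM003295.1:22384124. At CM003295.1:22384124, pituitary T1 replicate 1 had 75.4% over the 13 cytosines it listed.

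Lower levels at T4 over the tissues were also called at CM003291.1:106043124-106043321 (−4.73 points, edgeR adjusted p = 0.0291) and CM003287.1:47961577-47961701 (−4.09 points, 0.0392). At CM003287.1:47961577, T4 libraries had 85.5% and 88.0% in pituitary, 88.9% and 88.5% in ovary and 90.4% and 88.5% in liver, against 91.5% at T1 in pituitary, 93.0% and 91.9% in ovary and 93.1% and 93.2% in liver, with no overlap in any tissue. Leaving out a library ended that call in 10 of 11 cases, with adjusted p up to 0.157, and the call at CM003291.1:106043124 in 9 of 11, with adjusted p up to 0.627 without pituitary T1 replicate 2.

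**Figure D5:**
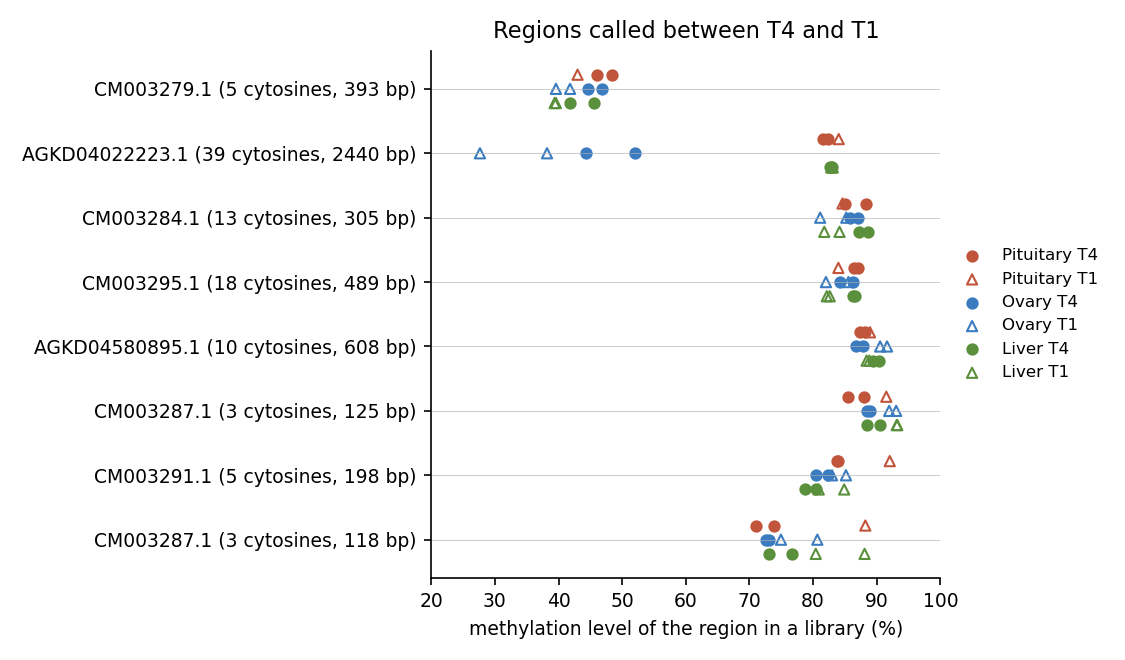
Methylation level (x axis, %, axis starting at 20) in each of 11 libraries for the named regions called between T4 and T1 (rows, with their number of cytosines and length). Filled circles are T4 and open triangles T1 libraries of pituitary (red), ovary (blue) and liver (green). In the lowest row T4 lies left of T1 in each tissue, with a difference of −10.0 points over the tissues.

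The remaining regions called over the tissues were single cytosines and CM003304.1:44410255-44410374, and they are named after their values were seen. AGKD04233553.1:678 was higher at T4 in each tissue, at 1014 to 1972 reads. It was nearly unmethylated, and the part of incomplete bisulfite conversion at such levels was not tested. It had 0.611% and 0.558% at T4 against 0.134% at T1 in pituitary, 1.09% and 0.984% against 0.302% and 0.394% in ovary, and 1.37% and 1.496% against 0.282% and 0.171% in liver (edgeR adjusted p = 9.92e-06 over the tissues and 0.000431 in liver). It was also the liver call, which was lost without liver T1 replicate 2 (adjusted p = 0.0551), and neither call passed with limma (0.347 and 0.770).

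Other sparsely methylated positions moved in both directions. CM003281.1:89203490 was 4.04 points higher at T4 (edgeR adjusted p = 0.00467), with 4.67% to 7.51% at T4 against 0.616% to 2.70% at T1 over the libraries. CM003280.1:8066715 differed by −3.16 points (adjusted p = 0.00584), with 0.218% to 1.63% at T4 against 2.33% to 6.35% at T1. The time points did not overlap at either cytosine. CM003290.1:21476371 differed by −10.3 points (adjusted p = 0.0256), with 7.55% to 16.7% at T4 against 18.6% to 25.3% at T1, and leaving out a library ended the call in 6 of 11 cases. CM003304.1:44410255-44410374 (8 cytosines) had 1.66% to 3.03% at T4 against 2.87% to 4.98% at T1 (adjusted p = 0.00409), a call lost without pituitary T1 replicate 2 (0.0763).

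At a few cytosines, libraries of a group differed more than groups did. The widest gap between the libraries of a group was at AGKD04017375.1:3546-3593 (2 cytosines), named after its values were seen, with 36.7% and 37.7% in liver T4 but 47.3% and 15.2% in liver T1. It had 16.6% and 39.0% in ovary T4 and 40.3% and 17.1% in ovary T1, and 14.9% and 35.5% in pituitary T4 and 13.5% in pituitary T1. Pituitary T1 replicate 1 had 43.1%, near liver T1 replicate 1 from the same fish by its title, and pituitary T1 replicate 2 lay near liver T1 replicate 2, again the same fish. The T4 replicate 2 libraries, also of the same fish, lay within 35.5% to 39.0%. Other libraries of the same fish lay apart, with 16.6% in ovary and 36.7% in liver at T4 replicate 1. By its title ovary T1 replicate 2 (17.1%) shares the fish of liver T1 replicate 1 (47.3%). The file names give that fish to ovary T1 replicate 1 (40.3%) instead. Across all regions the median gap between the libraries of a group was 1.38 to 1.67 points, and 5% of regions exceeded 7.04 to 7.99 points. The single cytosines AGKD04822232.1:382 and AGKD04828814.1:388, both called higher at T4 over the tissues (edgeR adjusted p = 0.0109 and 0.0143), also varied from library to library, with 42.1% and 21.9% at AGKD04822232.1:382 in liver T4 and 8.03% and 0.334% in liver T1. At AGKD04828814.1:388 the same libraries had 35.4%, 19.8%, 10.2% and 1.33%. Without pituitary T1 replicate 2 both calls were lost (adjusted p = 0.195 and 0.285), and AGKD04828814.1:388 also without pituitary T4 replicate 2 (0.0517).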

How the data were processed

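CpG methylation was measured by WGBS in 12 libraries. The authors trimmed reads with Trim Galore 0.5, aligned them to the bisulfite-converted ICSASG_v2 assembly with BS-Seeker2 2.1.8 and Bowtie2, and discarded duplicate reads with Picard before methylation calling. The deposited files hold raw counts of reads and of methylated reads per CpG cytosine, not normalised, for cytosines with at least 10 reads. Summed counts per library were 159785200 to 224866844. Whether reads of both strands were combined is not given in the sources used here. A base next to a very high coverage cytosine was listed for 24.5% to 29.8% of them, against 6.13% to 8.96% of the others.

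Cytosines with at least 150 reads in 11 libraries were joined within 1 kb. The members and lists were chosen with earlier results of these data known. Levels are methylated reads as a percentage of reads, and a region's level pools its cytosines. Regions and 1 kb tiles of at least 3 other common cytosines entered edgeR 4.0.16 (R 4.3.3) with a library effect, 6 group terms, a common dispersion from 20000 features (0.0224) and 5 residual degrees of freedom. DSS, which the authors used, was not installed. The procedure was tested on simulated data. Limma 3.58.1 (pseudocount 1) was an alternative.

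Regions named are the 5 with most cytosines (and 1 tied), the 5 deepest of 3 or more cytosines, the 3 lowest and 3 highest in level of 10 or more cytosines, and the 3 largest called increases and decreases per comparison among those of 3 or more. All other regions called between time points were added after their values were seen. The written plan assumed that pituitary T1 replicate 1 held no reads at these cytosines, which was not so. A fit with 12 libraries was added. Replicates are labelled as biological. Within a time point a replicate number in part marks the same fish in different tissues, by the titles, and replicate differences correlated by 0.12 to 0.394 over the 6 tissue pairs. Tissue comparisons were also fitted with fish as a block in limma. The common cytosines exclude those under 10 reads in any of 11 libraries.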

Additional observations from a re-analysis of the deposited data

Results flagged for a closer look

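At CM003306.1:37410288-37411675, liver T4 replicate 2 stood apart from the other liver libraries, at 88.5% against 87.3% to 87.5%. Chance sets a library apart in this way in about 1 in 20 groups, and 1 of the 70 groups of 4 libraries examined was set apart.

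T4 and T1 moved in opposite directions in ovary and in liver at AGKD04580895.1:34-641, with −3.74 points in ovary and 1.21 points in liver, and every T4 library lay on that side of both T1 libraries. The interaction over the tissues gave an unadjusted edgeR p of 6.96e-05 and an adjusted p of 0.421, so it was not called. At CM003281.1:49200769-49200918 the differences were −0.596 points in ovary and 0.859 points in liver, with an unadjusted interaction p of 0.144 in edgeR.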

How the results depend on the processing

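No call by which a region was named reversed under the alternatives: of 607 alternative values for 37 such calls, 483 kept their call and direction and 124 lost the call. The 37 calls were chosen as called from the same reads, and many alternatives left out a single library, so these counts are a description. Comparisons at regions named for their number of cytosines, depth or level were not among the 37. The counts of called regions for pituitary against liver, pituitary against ovary and ovary against liver were 54, 45 and 30 with limma on log2 ratios, 14, 8 and 16 with fish as a block by the title codes, and 17, 8 and 16 by the codes of the file names. In each of these fits, which did not weight by read depth, a smaller share of the regions than of all features was called. They were 66, 78 and 43 among the 158 regions of at least 10 cytosines, and 120, 128 and 72 among the 412 regions at 300 reads, where fewer regions were tested. For T4 against T1, limma called 0 regions in pituitary, 0 in ovary, 0 in liver and 0 over the tissues. With the cytosine minimum of 10 the counts were 0 in pituitary, 0 in liver and 1 over the tissues, and with 300 reads they were 2 in liver and 8 over the tissues. With 12 libraries, added after the data were seen, 3 regions were called in pituitary. For the cytosine minimum, the 300 reads and the 12 libraries the share of all features called is not given here. No comparison with that share is made.

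Replicate numbers do not pair T4 with T1, since by the titles these libraries came from different fish, and their replicate differences correlated by −0.148 to 0.101. With the replicate number as a block, T4 against T1 called 3 regions in pituitary, 5 in ovary, 8 in liver and 25 over the tissues, and the interaction 0. The tissue counts with this block were 287, 322 and 157, and the share of all features called with this block is not given here.

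Leaving out each library gave 223 to 285 regions for pituitary against liver, 219 to 326 for pituitary against ovary and 108 to 146 for ovary against liver. The lowest counts for the pituitary comparisons, 223 and 219, came without pituitary T1 replicate 2. For T4 against T1 the ranges were 0 to 2 in pituitary, 0 to 6 in ovary, 1 to 5 in liver and 5 to 17 over the tissues, with 5 without pituitary T1 replicate 2. The interaction gave 0 to 1.

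The mean levels of pituitary, ovary and liver were 77.6%, 75.1% and 76.1% over pooled reads, 71.3%, 68.8% and 69.4% with each region counted once, 77.7%, 75.5% and 76.5% at 300 reads or more, and 76.6%, 74.9% and 75.1% on CM sequences only. The pituitary minus liver difference was 1.94 points with each region counted once. On CM sequences only, pituitary minus ovary was 1.69 points and ovary minus liver −0.186 points. Without each library in turn, means ran over 78.0% to 78.3%, 75.8% to 76.1% and 76.7% to 76.9%, and the differences over 1.198 to 1.495, 2.07 to 2.36 and −0.987 to −0.776 points.

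Pituitary T1 rests on 1 library, and groups hold 2 libraries at most per time point. Copies of a sequence pooled at 1 position cannot be told apart here.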

Other observations

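Cytosines of ordinary depth next to the very high coverage regions, under 50 reads on average and within 2000 bp, did not share one tissue order. On CM sequences 3266 such cytosines averaged 80.4% in pituitary, 78.9% in ovary and 81.4% in liver. On scaffolds 4635 averaged 77.9%, 76.2% and 77.3% in the same tissues. The very high coverage cytosines averaged 76.6%, 74.9% and 75.1% on CM sequences, below these neighbours. On scaffolds they averaged 78.7%, 76.3% and 77.4%, slightly above theirs.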
